A study of Mus musculus with 3 samples.

Results

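The Krüppel-like factors are zinc finger transcription factors, and 10 of their genes were examined here in DNase-seq data from mouse Müller cells: Klf1, Klf2, Klf3, Klf4, Klf5, Klf6, Klf9, Klf10, Klf13 and Klf15. They were chosen by name from a larger family, with earlier results of these data known, and counts given below for the family are for these 10. They are 10 of the 21646 protein-coding genes annotated on the autosomes and X in GENCODE M21 on build mm10. DNase-seq maps DNA that the nuclease DNase I can reach, and Müller cells are the radial glia of the retina. The samples were primary Müller cells of strain B6NCrl mice, pooled from males and females at an age of 12 days, with no treatment, transgene or genetic change named in the labels. They form 1 group of 3 biological replicates, with no second condition to set them against, so every result is a description of these cells. Each replicate has its own biosample label but the donor label is shared, so a standard deviation (SD) gives sample-to-sample spread, which may be partly technical. The labels name no sort and point to a nuclei protocol written for cultured cells.

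All Krüppel-like factors share zinc fingers at the end of the protein that bind GC-rich DNA and CACCC boxes, and they differ mainly in the domains that recruit coactivators or corepressors. Many are early response genes, switched on quickly by serum, hormones, flow or injury. In retinal neurons the family is known for opposing effects on axon growth, with Klf4 and Klf9 as brakes and Klf6 as a promoter of regrowth.

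The deposited lists held 300269, 281185 and 184544 peaks in replicates 1, 2 and 3, with 269267, 259229 and 161437 wider regions called hotspots. Peaks are 150 bp wide at the median and carry a score from 1 to 150 whose meaning the files do not state. Because the top of the scale equals the peak width it may saturate, so scores are given per replicate and compared mainly by rank. Read depth is unknown, and replicate 3 stands apart by its lower number of peaks. A site is called reproducible where peaks of all 3 replicates overlap, and a gene is called open where at least 1 of its protein-coding starts has such a site within 1 kb. Of 14 Müller glia marker genes, among them Rlbp1, Glul and Aqp4, 14 were open, and of 7 rod marker genes 0 had a promoter peak in any replicate. Of 17 microglia and macrophage marker genes, 17 had a promoter peak in replicates 1 and 2 and 5 in replicate 3. Among all protein-coding genes 67.1% were open, and 72.7%, 71.8% and 69.7% had a promoter peak in replicates 1, 2 and 3. In a bulk sample a site open in few cells and a site weakly open in many cannot be told apart.

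The promoters of 9 of the 10 genes were open, and for 8 of those the strongest peak scored above the median promoter peak in every replicate. Across all protein-coding genes 67.1% were open, and 72.7%, 71.8% and 69.7% had a promoter peak in replicates 1, 2 and 3, where the family had 9 of 10 each time. At the 9 genes the median score of the strongest promoter peak was 145, 137 and 136 in replicates 1, 2 and 3, against 123, 115 and 113 over all genes with such a peak. Klf15 was the open gene under that median in every replicate, and Klf1 had no promoter peak. Counting promoters within 500 bp gave the same 9 open genes. A window of 2500 bp, or hotspots in place of peaks, made it 10 of 10 by adding Klf1. The share of all genes that were open was not counted under these other settings.

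The promoter sites of Klf2, Klf4, Klf6, Klf9 and Klf13 show how unlike in sequence these open promoters are, although all lie at or just upstream of a start site. Sequences are read from mm10, 5′ to 3′ on the strand of the gene, over 150 bp round the centre of the strongest reproducible site. The window of Klf2 leaves out 13 bases of its 5′ UTR. Capitals mark matches on either strand to the Krüppel-like factor consensus CCNCNCCC, the GC box GGGCGG, the CCAAT box CCAAT or a widened MEF2 consensus.
Klf2, chr8:72318896-72319032, plus strand: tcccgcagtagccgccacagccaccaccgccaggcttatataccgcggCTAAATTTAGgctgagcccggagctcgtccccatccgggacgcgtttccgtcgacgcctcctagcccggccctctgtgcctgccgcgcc
Klf4, chr4:55532546-55532695, minus strand: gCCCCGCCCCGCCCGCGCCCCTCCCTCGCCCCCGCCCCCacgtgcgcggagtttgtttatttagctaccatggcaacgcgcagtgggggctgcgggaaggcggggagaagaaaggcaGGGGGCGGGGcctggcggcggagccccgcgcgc
Klf6, chr13:5861326-5861475, plus strand: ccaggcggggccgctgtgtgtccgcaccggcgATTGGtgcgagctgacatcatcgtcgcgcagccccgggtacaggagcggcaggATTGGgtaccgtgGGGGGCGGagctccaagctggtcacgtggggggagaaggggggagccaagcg
Klf9, chr19:23141016-23141165, plus strand: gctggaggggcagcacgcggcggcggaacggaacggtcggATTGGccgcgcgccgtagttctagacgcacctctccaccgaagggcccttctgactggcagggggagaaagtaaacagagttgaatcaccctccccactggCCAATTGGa
Klf13, chr7:63939036-63939185, minus strand: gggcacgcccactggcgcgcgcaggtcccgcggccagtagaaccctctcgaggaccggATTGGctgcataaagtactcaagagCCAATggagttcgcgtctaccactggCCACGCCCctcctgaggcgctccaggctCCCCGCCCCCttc
The Klf4 window held 9 overlapping matches to the family consensus and 4 GC boxes, and Klf13 held 3 and 1. The Klf6 window held 1 of each and 2 CCAAT boxes. The Klf9 window held no match to either, with 3 CCAAT boxes. The Klf2 window held a match to the widened MEF2 consensus, also with none of the family consensus. A match is a description of the letters and does not show that a factor is bound.

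Over the 26 reproducible promoter sites of the 9 genes, 65.4% held the family consensus and 46.2% a GC box. Over all 24976 reproducible promoter sites of protein-coding genes the shares were 49.5% and 44.6%. The consensus and the GC box can overlap, and both are rich in G and C. Median GC content was 67.3% at the family's sites and 64% at all promoter sites, and its part in these shares was not tested. A CCAAT box lay in 12 of the 26 sites (46.2%), against 22.7% of all. The widened MEF2 consensus lay in 1 of the 26, the Klf2 site, against 0.216% of all. The MEF2 consensus as first chosen lay in none of the 26, against 0.18% of all. The CCAAT box and the widened MEF2 consensus were added after the promoter sequences had been seen.

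**Figure D1:**
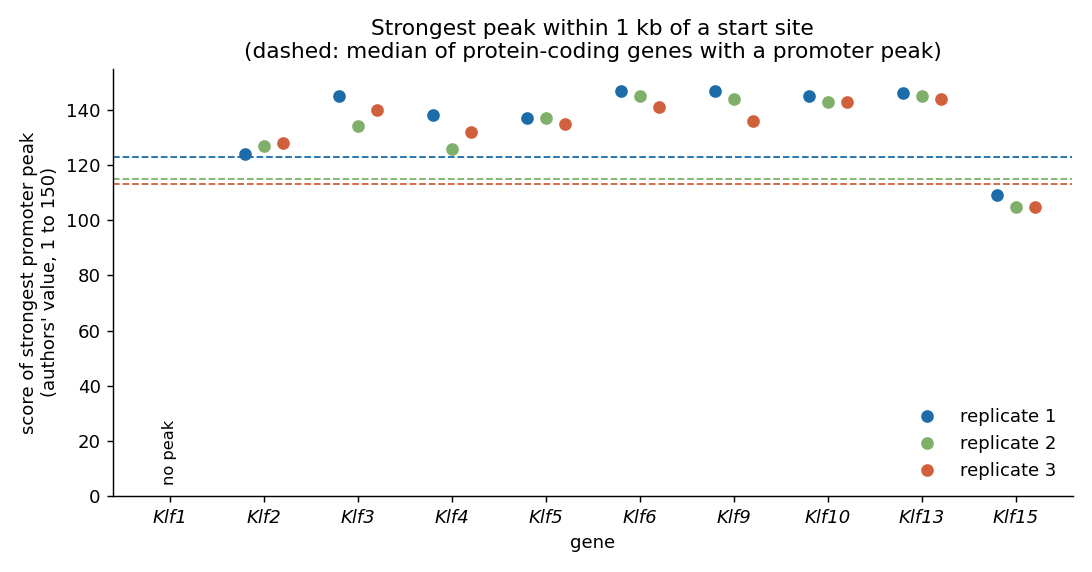
Score of the strongest peak within 1 kb of a start site (y axis, the authors' value without unit, up to 150) for each KLF gene (x axis), 1 point per replicate, with dashed lines at each replicate's median over protein-coding genes that have a promoter peak. 8 genes sit above all 3 lines, Klf15 below them, and Klf1 has no promoter peak.

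Klf1, Klf2 and Klf4 are the members best known from blood and blood vessels. Klf1 (chromosome 8, 84901928 to 84905291, plus strand) is the master factor of erythroid cells and activates the adult beta-globin gene. It had no peak within 1 kb of its start site in any replicate. Its site closest to the start lay in its own exon, 1208 bp downstream, and scored 105, 97 and 118. The peaks ranked 37539, 34190 and 8922 in replicates 1, 2 and 3. A hotspot of 1120, 879 and 1061 bp over that site reached within 1 kb of the start in each replicate, with a −log10 q at the deposited cap of 100. The 1000 bp round the Klf1 start were poor in CpG, with an observed to expected ratio of 0.0783 that 96.8% of genes equalled or exceeded. The median gene had 0.619, and the other 9 members ran from 0.712 for Klf2 to 1.03 for Klf15. The exon site is shown because it is the only distal site given to Klf1, with capitals for the CTCF core AGGGGGC, which reads GCCCCCT on the opposite strand.
Klf1 exon site, chr8:84903166-84903315, plus strand: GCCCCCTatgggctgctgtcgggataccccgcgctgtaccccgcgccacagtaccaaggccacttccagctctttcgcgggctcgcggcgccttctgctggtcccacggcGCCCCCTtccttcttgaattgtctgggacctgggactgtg
The CTCF core lay in 4.68% of all reproducible distal sites. Of 8 erythroid marker genes 3 had a promoter peak in each replicate, and Gata1, Alas2, Hba-a1, Hbb-bt and Hbb-bs had none. Klf1 lies 8007 bp from the start site of Gcdh and 6632 bp from that of Dnase2a, so just 5320 bp of genome are nearest to it outside promoter zones.

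Klf2 (chromosome 8, 72319033 to 72321656, plus strand) is induced by blood flow in endothelium through MEF2 factors and keeps T cells and macrophages quiescent. Its promoter peak at the start site scored 124, 127 and 128 (126 ± 2.08, SD, n = 3). The scores lay close together and placed it in the top 5.76%, 3.36% and 2.52% of all peaks of replicates 1, 2 and 3. A promoter peak at least as strong was found in 35.8%, 25.4% and 19% of genes. Klf2 had 7, 6 and 4 distal peaks, of which 2 sites were in all 3 replicates. One lay 1283 bp downstream in its own intron (39, 32 and 37), and the other 46903 bp downstream in an intron of Eps15l1 (68, 57 and 41). A peak 3503 bp downstream, beyond the end of the gene, scored 80 and 68 in replicates 1 and 2 and was not called in replicate 3.

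Klf4 (chromosome 4, 55527143 to 55532466, minus strand) is a pluripotency factor that also drives epithelial and monocyte differentiation. Its main promoter site scored 138, 126 and 132 (132 ± 6, SD, n = 3), with replicate 2 lowest. A further site 450 bp upstream scored 125, 117 and 98. Klf4 had 34, 36 and 16 distal peaks, and 15 reproducible distal sites. The strongest of these by its lowest score lay in a Klf4 exon (114, 109 and 100). The most distant was 87510 bp upstream (46, 36 and 17), and replicate 3 was the lowest at both.

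Klf3 (chromosome 5, 64803388 to 64832901, plus strand) represses transcription by recruiting CtBP. Its promoter peak scored 145, 134 and 140 (140 ± 5.51, SD, n = 3), and 6 reproducible promoter sites lay round its 4 start sites. An internal start had a site that scored 100, 88 and 88. Klf3 had 44, 39 and 20 distal peaks (34.3 ± 12.7, SD, n = 3), and 16 reproducible distal sites. Among all 108 reproducible distal sites of the family, the highest score in each replicate was at a Klf3 site 51307 bp downstream, with 146, 145 and 142. That distance runs from the last of the 4 Klf3 starts, and the start of Tlr1 lies 105952 bp beyond the same start. The site thus lies near the middle between both genes' starts, and which gene it serves is not known. Its peaks ranked 626, 454 and 473 among all peaks of their replicate. The 3 values lay as high as those of the promoter peak, which is at the first Klf3 start.

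The sequences of 5 distal sites are shown because each was the strongest of its gene by the lowest score over the replicates. They are read on the plus strand of mm10. Capitals mark the family consensus CCNCNCCC, the AP-1 consensus TGANTCA, the TEAD consensus GGAATG, the NFI consensus TTGGCA, the SOX consensus ACAAAG or ACAATG, or the CTCF core.
Klf3, 51307 bp downstream, chr5:64878126-64878275: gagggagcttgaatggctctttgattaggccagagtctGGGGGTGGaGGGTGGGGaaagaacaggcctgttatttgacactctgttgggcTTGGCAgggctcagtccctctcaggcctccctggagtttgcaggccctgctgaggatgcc
Klf6, 23817 bp upstream, chr13:5837496-5837645: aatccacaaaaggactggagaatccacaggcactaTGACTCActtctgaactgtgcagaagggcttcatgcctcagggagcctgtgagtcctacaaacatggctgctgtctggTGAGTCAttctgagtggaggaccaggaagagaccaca
Klf9, 6081 bp upstream, chr19:23134986-23135135: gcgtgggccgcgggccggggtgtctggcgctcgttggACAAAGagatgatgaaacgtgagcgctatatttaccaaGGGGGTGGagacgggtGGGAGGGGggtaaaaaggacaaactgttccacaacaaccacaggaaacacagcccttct
Klf10, 84050 bp upstream, chr15:38384766-38384915: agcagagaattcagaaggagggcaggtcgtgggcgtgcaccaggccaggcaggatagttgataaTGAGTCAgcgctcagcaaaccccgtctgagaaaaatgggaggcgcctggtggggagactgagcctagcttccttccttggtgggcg
Klf15, 41178 bp downstream, chr6:90508306-90508455: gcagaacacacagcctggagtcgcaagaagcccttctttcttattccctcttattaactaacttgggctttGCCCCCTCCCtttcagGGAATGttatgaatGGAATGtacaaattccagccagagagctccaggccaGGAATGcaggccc
The Klf3 site held 2 matches to the family consensus and an NFI match. The Klf6 site held 2 AP-1 matches and the Klf10 site 1. The Klf9 site held 2 family matches and a SOX match, and the Klf15 site 3 TEAD matches and a family match that overlaps a CTCF core.

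Klf6 and Klf5 are growth-linked members. Klf6 (chromosome 13, 5861482 to 5870394, plus strand) is an early response gene of injury. Its promoter peak scored 147, 145 and 141 (144 ± 3.06, SD, n = 3), and 2.7%, 3.16% and 3.76% of genes had a promoter peak as strong. It had 49, 46 and 17 distal peaks (37.3 ± 17.7, SD, n = 3), the highest number of the family in replicates 1 and 2. Klf6 had 16 reproducible distal sites. The site 23817 bp upstream scored 143, 133 and 117, and one 57577 bp upstream 138, 134 and 90. In its introns, sites 2114 and 4734 bp downstream scored 135, 131 and 101, and 118, 107 and 79. A site just beyond its last exon scored 133, 129 and 106. Replicate 3 was the lowest at all of these.

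Klf5 (chromosome 14, 99298691 to 99315036, plus strand) promotes proliferation in epithelia and smooth muscle. Its promoter peak scored 137, 137 and 135 (136 ± 1.15, SD, n = 3). Its surroundings were sparse, with 13, 13 and 5 distal peaks and 4 reproducible sites over 197392 bp of genome. That is 2.03 sites per 100 kb, and 69.6% of the 19126 genes with at least 10000 bp of such genome had at least that density. The one nearest its start, 2566 bp upstream, scored 119, 110 and 106.

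Klf9, Klf10, Klf13 and Klf15 are members with links to hormones and growth factors. Klf9 (chromosome 19, 23141226 to 23168134, plus strand) is induced by thyroid hormone and glucocorticoids. Its promoter peak scored 147, 144 and 136 (142 ± 5.69, SD, n = 3). It had 31, 29 and 22 distal peaks and 16 reproducible distal sites. Sites 6081 and 5101 bp upstream scored 109, 111 and 112, and 120, 116 and 108, so replicate 3 kept close to the other replicates there. Between them, replicates 1 and 2 had a peak 5601 bp upstream (95 and 79), and replicate 3 a separate one 5361 bp upstream (91). The consensus ACANNNTGT of the glucocorticoid receptor lay in 2 of the 16 Klf9 sites, 1 of them the site 6081 bp upstream, and in 2 of the 16 Klf3 sites. Over all distal sites that share was 4.8%, and 3.7% over the family's 108 sites.

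Klf10 (chromosome 15, 38291463 to 38300706, minus strand) is an early target of TGF-beta. Both of its main start regions were open, with scores of 145, 143 and 143 (144 ± 1.15, SD, n = 3) at the upstream one and 143, 143 and 135 at the internal one. Klf10 had 25, 28 and 18 distal peaks. Of its 15 reproducible distal sites 13 lay upstream. The next protein-coding start of another gene lies 79636 bp away on the downstream side (Odf1) and 217456 bp away upstream (Azin1). Less genome was thus given to Klf10 downstream, and the part of this in the split was not tested. The site 84050 bp upstream scored 144, 137 and 115. A further site 1610 bp upstream scored 118, 116 and 105. The CREB consensus TGACGTCA lay in 2 of the 15 sites, against 0.394% of all distal sites. No other member had a match to it in a reproducible distal site.

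Klf13 (chromosome 7, 63886351 to 63938915, minus strand) is a repressor that recruits Sin3a and also activates genes in T cells. Its promoter peak scored 146, 145 and 144 (145 ± 1, SD, n = 3), the highest mean of the family. Internal starts had sites that scored 124, 115 and 100, and 116, 100 and 102. It had 27, 21 and 20 distal peaks. Of its 14 reproducible distal sites 11 lay upstream of the nearest start, and 6 lay in its own introns. Some sites are in both counts, because they lie inside the gene upstream of an internal start. Beyond the Klf13 starts, the next start of another gene lies 8013 bp away downstream (E030018B13Rik) and 214920 bp away upstream (Trpm1). More genome was thus given to Klf13 upstream, and the part of this in the split was not tested. The family consensus lay in 8 of the 14 Klf13 sites, against 17.8% of all reproducible distal sites. That was more than for any other member, of which Klf3 and Klf10 had 4 each. Sites 62681 and 72921 bp upstream scored 90, 104 and 30, and 119, 122 and 25, with replicate 3 far below the others.

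Klf15 (chromosome 6, 90462576 to 90475238, plus strand) is a glucocorticoid target that controls amino acid and glucose metabolism. Its strongest promoter peak lay in an intron, 862 bp downstream of the nearest start, and scored 109, 105 and 105 (106 ± 2.31, SD, n = 3). The site at the start itself scored 94, 87 and 94. A promoter peak as strong as 109, 105 and 105 was found in 46.6%, 42.5% and 41.7% of genes. Klf15 had 17, 14 and 10 distal peaks and 9 reproducible distal sites, or 15.7 per 100 kb, which 5.7% of those 19126 genes reached. Of those, 5 lay in introns of Aldh1l1, the folate enzyme gene that marks astrocytes, and scored from 37 to 126 in replicate 1. The protein-coding start of Aldh1l1 lies 83671 bp from the last Klf15 start, while a noncoding transcript of it starts before those sites. A site is given to the gene with the nearest protein-coding start, which does not show which gene it serves.

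Taken over the 10 chosen genes, 108 reproducible distal sites were given to them, and each gene had at least 1, as did 69.8% of all genes. The median member had 14.5 sites against 2 for all protein-coding genes, and per 100 kb of genome nearest to the gene the medians were 9.58 and 4.36, genes with little such genome, as Klf1, included. Klf3, Klf6 and Klf9 had 16 each, a number that 4.59% of genes reached, and Klf4 and Klf10 had 15. Klf13 had 14, Klf15 9, Klf5 4, Klf2 2 and Klf1 1. Among the Klf genes outside the 10, Klf7 had 19, Klf12 15, Klf14 6, Klf11, Klf16 and Klf17 3 each, and Klf8 2. The median of 14.5 is thus that of the chosen genes. Their sum of 108 depends on replicate 3 and on what counts as a start site. Without replicate 3 it was 198, with Klf6 rising from 16 to 39, Klf3 to 32 and Klf4 to 30. All genes showed such a dependence, with 58838 distal regions in replicates 1 and 2 only beside 86142 in all 3. At the family these counts were 89 and 108. Without replicate 1 or 2 the sum was 111 or 115. With start sites of all annotated genes, noncoding ones included, it was 31, and Klf9 and Klf15 were left with 0. With the strongest 50% of peaks of each replicate it was 64.

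**Figure D2:**
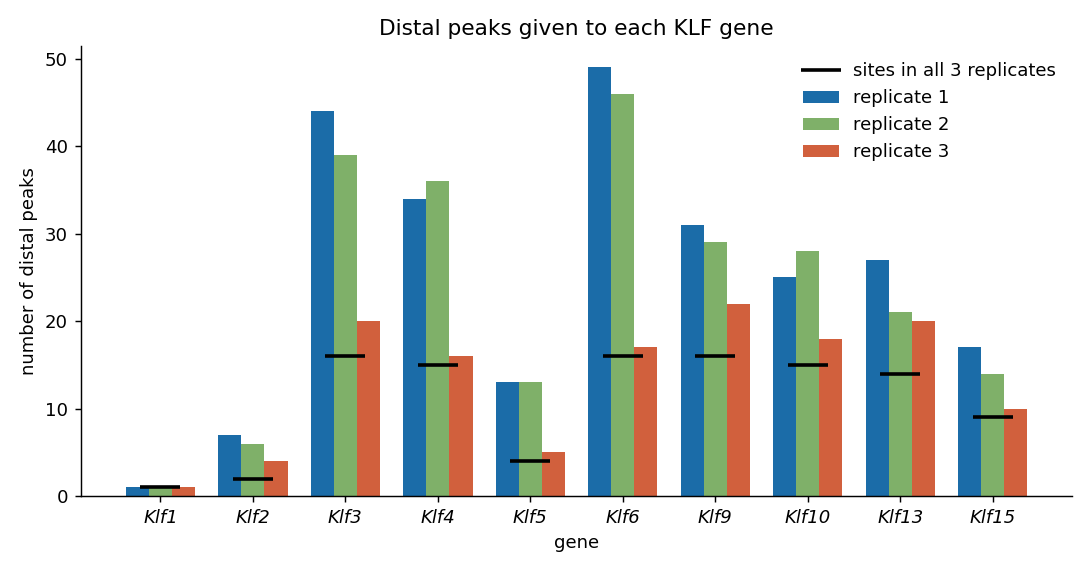
Number of distal peaks given to each KLF gene (y axis) in replicates 1, 2 and 3 (bars), with a black line at the number of sites shared by all 3. Klf6 had 49, 46 and 17 peaks with 16 shared, and Klf13 27, 21 and 20 with 14 shared.

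The 108 sites lay a median of 29300 bp from the nearest start of their gene, 57 upstream and 51 downstream of it. By position, 78 were intergenic, 25 in introns and 5 in exons. Of all 108, 23 lay within the gene they were given to. These splits by side and position were not counted over all reproducible distal sites, so they are not set against a usual split. The median scores of the 108 sites were 85, 69 and 55 in replicates 1, 2 and 3, against 78, 65 and 45 over all 86142 reproducible distal sites. The 10 that ranked highest in their weakest replicate belonged to 5 genes, with 3 at Klf3, 3 at Klf6, 2 at Klf13 and 1 each at Klf10 and Klf15.

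**Figure D3:**
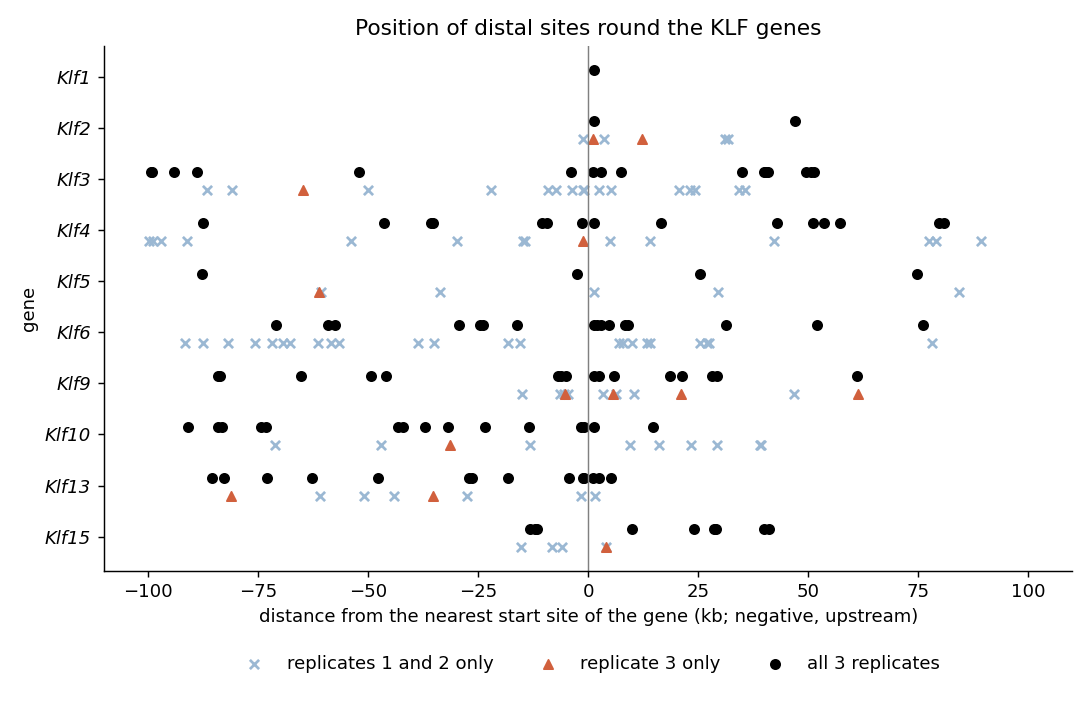
Distance of distal sites from the nearest start site of each KLF gene (x axis, kb, negative upstream), for sites in all 3 replicates (dots), in replicates 1 and 2 only (crosses) and in replicate 3 only (triangles). Klf10 has 13 of 15 shared sites upstream, the side on which more genome was given to it. Klf6 has 23 sites of replicates 1 and 2 and none of replicate 3 alone.

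The members differed in their number of distal peaks in replicate 3 relative to replicates 1 and 2. The ratios count all distal peaks of a replicate, shared or not. Over all genes replicate 3 had 0.605 times the distal peaks of the mean of replicates 1 and 2. The ratio was 0.358 for Klf6, 0.385 for Klf5, 0.457 for Klf4 and 0.482 for Klf3. It was 0.615 for Klf2, 0.645 for Klf15, 0.679 for Klf10, 0.733 for Klf9 and 0.833 for Klf13. Of 2516 genes with a mean of at least 20 peaks in replicates 1 and 2, 4.13% had a ratio as low as that of Klf6 and 94% one no higher than that of Klf13. The order is a description of single libraries, and no test of it was made.

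When each replicate was limited to its 184544 strongest peaks, the ratio over all genes became 0.943. Klf6 then had 36, 34 and 17 distal peaks, a ratio of 0.486 that 3.18% of the compared genes were at or under. Klf3 and Klf4 had 0.656 and 0.667, while Klf9, Klf10 and Klf13 had 0.978, 1 and 1.08. The few peaks of Klf5, Klf2 and Klf15 gave 0.833, 1.14 and 1.11. Klf6 was thus the lowest of the family in both counts.

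Of the 54 distal regions of Klf6, 23 (42.6%) had peaks in replicates 1 and 2 only and 0 in replicate 3 alone. Over the family those of replicates 1 and 2 only were 31.2% of 285 regions, and over all genes 27.2% of 216476. To compare lists of different length, ranks were taken as a percent of each replicate's peaks. By that measure the weakest rank of the 16 shared Klf6 sites was in replicate 3 at 16 of 16, and at Klf4 at 13 of 15. At Klf9 it was in replicate 3 at 8 of 16, and over all genes at 75.3% of sites. Among the Klf6 peaks of replicates 1 and 2 only, the highest scores were 95 and 93 at 10034 bp downstream and 99 and 83 at 58397 bp upstream.

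**Figure D4:**
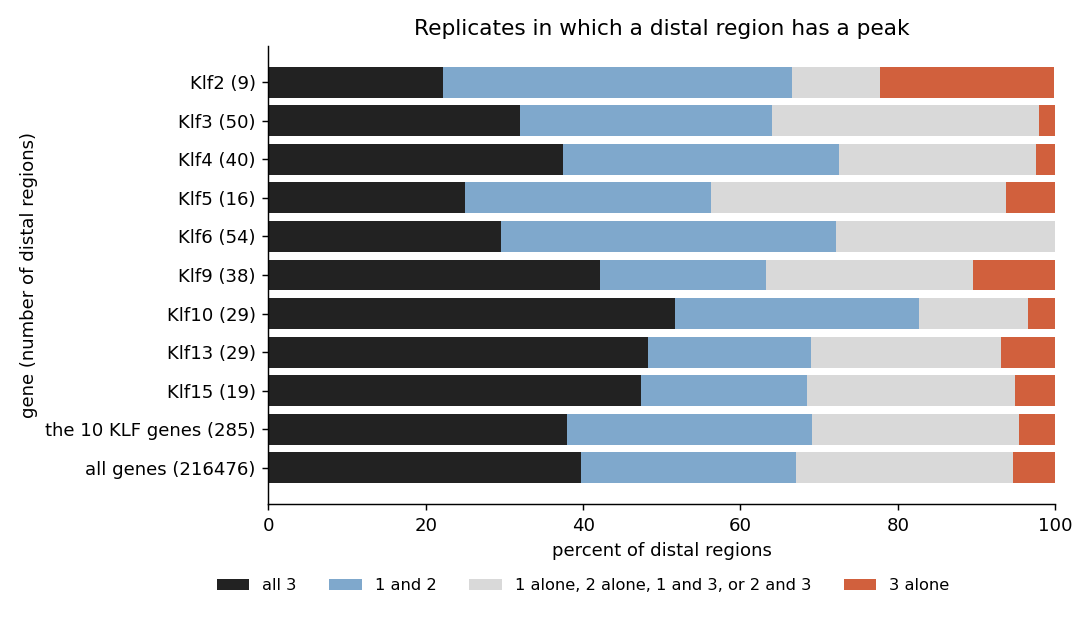
Share of distal regions (x axis, percent) by the replicates in which they have a peak, for each KLF gene with at least 9 regions, for the family and for all genes, with the number of regions in brackets. Klf6 has 42.6% in replicates 1 and 2 only against 27.2% for all genes, and Klf10 has 51.7% in all 3.

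Marker genes of other cells differed between the replicates to unlike degrees. The 17 microglia and macrophage markers had promoter scores that summed to 1409, 1385 and 251 in replicates 1, 2 and 3, and Spi1, Cx3cr1, C1qa, C1qb, C1qc and Csf1r had no promoter peak in replicate 3. The sums of the 14 Müller markers were 1685, 1580 and 1503. Over all protein-coding genes the sums were 1732850, 1602398 and 1554057, also lowest in replicate 3. Endothelial markers had a promoter peak at 7, 7 and 6 of 10 genes, with sums of 608, 543 and 453, and Tie1, Emcn and Sox17 at none. Erythroid markers had sums of 262, 231 and 204. Pericyte and smooth muscle markers had a promoter peak at 6 of 7 genes in each replicate with sums of 529, 424 and 451, astrocyte markers at 5 of 5 with 398, 352 and 371, and fibroblast markers at 4 of 5 with 351, 276 and 317, so replicate 3 lay above replicate 2 in these lists. The part of these in the Klf6, Klf4 and Klf3 counts was not tested. The promoter scores of the 9 open members summed to 1238, 1206 and 1204.

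Motifs were counted in 150 bp round the centre of each distal site, on both strands. The family consensus CCNCNCCC lay in 26 of the 108 sites (24.1%), against 17.8% of all reproducible distal sites. Klf13 alone, with 14 of the sites, held 8 of the 26, so the difference in these shared sites rests largely on that gene. AP-1 matches lay in 25%, against 20.6%, and at Klf6 in 7 of 16 sites. TEAD matches lay in 22.2% against 19% and NFI matches in 21.3% against 17.1%. The SOX consensus ACAAAG lay in 21 sites, 19.4% against 16.6%. Klf9, with 16 of the sites, held 7 of those 21, so that difference rests on this gene. These counts rest on few sites, and no test was made of them.

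Of the other consensus sequences, some were less frequent at the family's sites than at all sites. The SOX consensus ACAATG lay in 7.41% against 11.3%, the RUNX consensus TGTGGT in 13.9% against 17.1% and the homeobox consensus TAATTA in 2.78% against 5.83%. The RFX consensus GTTGCCA lay in 0 of 108 against 3.09%. The CCAAT box, more frequent at the family's promoter sites, lay in 15.7% of its distal sites against 20.5%. The C/EBP consensus TTGCNNAA, with 7.41% against 7.88%, and the GC box, with 5.56% against 6.5%, lay near the share of all sites. Some were more frequent. The CACCC box CCACACCC, a special case of the family consensus, lay in 2.78% against 1.48%. The PU.1 consensus GAGGAAG lay in 8.33% against 5.55% and the CREB consensus, in the 2 Klf10 sites, in 1.85% against 0.394%. Also near the share of all sites were the CTCF core, with 5.56% against 4.68%, and the E-box CACGTG, with 2.78% against 2.34%. The same held for the GATA consensus AGATAA, with 5.56% against 5.13%.

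In the family's 89 sites of replicates 1 and 2 only, the PU.1 consensus lay in 12.4% and C/EBP in 13.5%, against 9.32% and 11.2% of all 58838 such sites. RUNX lay in 19.1% against 19.2%, AP-1 in 19.1% against 20.4% and the SOX consensus ACAATG in 15.7% against 10.8%. These shares rest on few sites. The family consensus lay in 15 of the 89 sites (16.9%) against 9.12% of all. Klf13, with 6 of the 89 sites, held 0 of the 15, while Klf6 held 5 and Klf9 3. In the 13 sites of replicate 3 alone the family consensus lay in 38.5%, and in 35.3% of all 11572 such sites. Median GC content in the family's sites was 51.3% where all 3 replicates shared them, 46% in replicates 1 and 2 only and 56% in replicate 3 alone. Over all genes it was 50%, 46.7% and 52.7%, in the same order. Of each replicate's own distal peaks at the family, 18.1%, 18.5% and 27.8% held the family consensus. Over the distal peaks of all genes the shares were 12.8%, 13.3% and 22.4%, also highest in replicate 3.

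**Figure D5:**
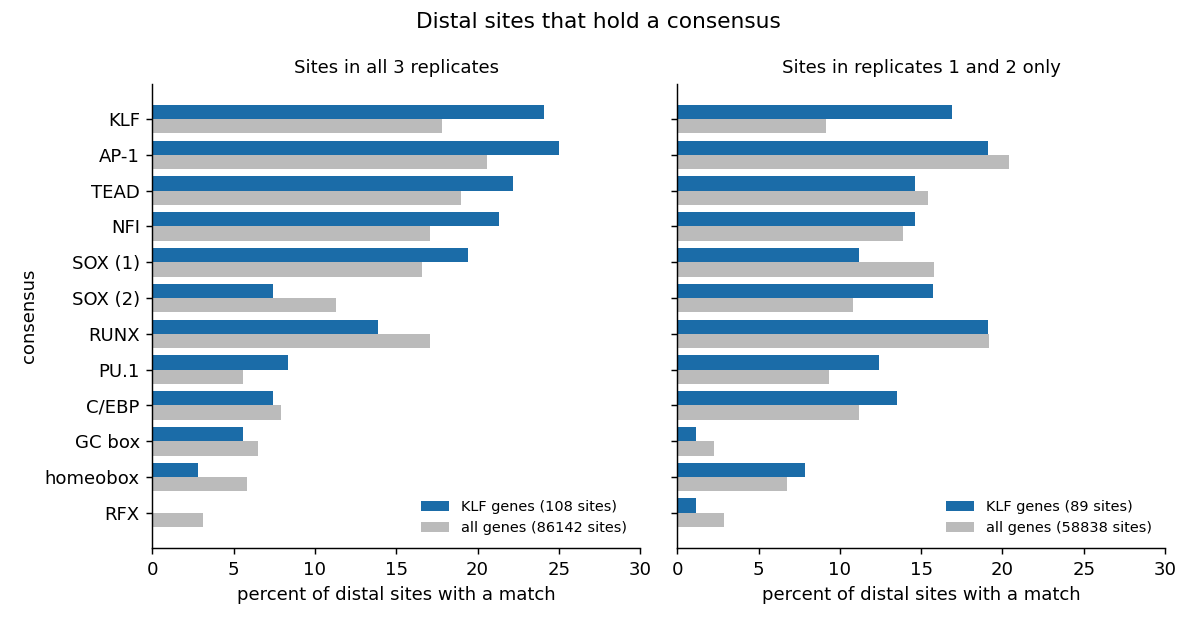
Percent of distal sites with a match to each consensus (x axis) at the KLF genes (blue) and at all genes (grey), for sites in all 3 replicates (left) and in replicates 1 and 2 only (right), where SOX (1) is ACAAAG and SOX (2) ACAATG. The family consensus lies in 24.1% of the KLF genes' shared sites and 17.8% of all, with 8 of the 26 family matches at Klf13.

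The other genes of the pathway were read the same way. Of the 16 other KLF and SP genes 13 were open, against 67.1% of all protein-coding genes. Klf17, Sp7 and Sp8 were not open. The 16 genes had a median of 4 reproducible distal sites. Klf7, the closest relative of Klf6, scored 148, 149 and 146 at its promoter and had 44, 49 and 22 distal peaks with 19 shared, more shared sites than any of the 10. Sp1, the founding GC box factor, scored 149, 147 and 144 but had just 4 shared distal sites. Klf8 and Klf14 were open with low scores, 45, 40 and 45, and 40, 35 and 55.

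Of 11 cofactor genes 11 were open, among them Ctbp1 (139, 139 and 141), the corepressor of Klf3, and Sin3a (144, 143 and 145), that of Klf9 and Klf13. The share of all protein-coding genes that were open was 67.1%. Ctbp2 had 35 reproducible distal sites. Of 14 upstream regulators 13 were open, and Gata1, the activator of Klf1, was not. Mapk7, the kinase ERK5 upstream of Klf2, scored 140, 132 and 135, and Mef2a 135, 127 and 128. Arntl, the clock factor also called Bmal1, scored 150, 145 and 140 and Thrb, a thyroid hormone receptor, 127, 117 and 124.

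Of 20 genes known as targets of the family 16 were open, against 67.1% of all protein-coding genes. Hbb-bt and Hbb-bs, the beta-globins that Klf1 activates, had no promoter peak in any replicate, nor had Nos3, the endothelial nitric oxide synthase under Klf2 control. Dio1, a deiodinase gene, had one of 21 in replicate 1 alone. Thbd, an endothelial target of Klf2, scored 57, 41 and 55. Cdkn1a, the cell cycle inhibitor activated by Klf4 and Klf6, scored 136, 127 and 125, and Prodh, a proline oxidase gene regulated by Klf15, 118, 117 and 121.

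Genes whose values were most alike were sought for Klf3 and Klf6, over 6 values each, log2(1 + the strongest promoter score) and log2(1 + the number of distal peaks) in 3 replicates, each divided by its SD over all protein-coding genes. For Klf6 they were Qk, Ttll5 and Cask, at Euclidean distances of 0.136, 0.154 and 0.165 on that scale. Qk had 51, 49 and 16 distal peaks. For Klf3 they were Specc1, Azin1 and Tnrc6c, at 0.0487, 0.0541 and 0.0758, and Azin1 had 46, 39 and 20 distal peaks.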

How the data were processed

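DNase-seq peaks and hotspots of 3 replicates of mouse Müller cells were used. Peak values are scores as deposited by the authors, whole numbers of unstated meaning, and hotspot values are −log10 q as deposited by the authors, capped at 100. Coordinates are on mm10, per the labels. The aligner and the caller were not given in the sources used here. Repeated positions were removed (21, 20 and 23 peaks). Peaks were merged at an overlap of 1 bp or more. Start sites were those of protein-coding transcripts in GENCODE M21. Distal sites lay over 1 kb from every such start and were given to the nearest within 100 kb. Distance, upstream and downstream are relative to that nearest start, which can lie inside the gene. Motifs were searched in 150 bp windows of the mm10 sequence. Python 3.11.15, numpy 2.4.6 and pandas 2.3.3 were used, and assignment was tested on simulated data. Named genes were the 10 members, lists of relatives, cofactors, targets and regulators, and the 3 genes most alike. Named sites were each member's strongest sites and the 10 strongest distal ones; other sites were picked after their values were seen. Members and lists were chosen with earlier results of these data known. Alternatives covered windows, distance, overlap, peak numbers, start sites, hotspots and left-out replicates.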

Additional observations from a re-analysis of the deposited data

How the results depend on the processing

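The count of 9 open members of 10 held with a 500 bp window, the same number of peaks per replicate, the strongest 50% of peaks and each replicate left out, and became 10 with a 2500 bp window or with hotspots. The share of all genes that were open was counted under the main setting alone. The sum of 108 reproducible distal sites was 64 with the strongest 50% of peaks and 31 with start sites of all genes, and ran from 111 to 198 with 1 replicate left out, 198 being the value without replicate 3. It was 95 with the same number of peaks, 86 with hotspots, 98 at an overlap of 75 bp, 75 within 50 kb and 93 with 2500 bp round start sites left out. The share of distal sites with the family consensus was 24.1%, and 29.6% when whole sites were searched, against 22.2% of all sites. The number of sites per member stayed within 1.5 times for 4 of 10 members without replicate 3 and for 1 of 10 with start sites of all genes. With equal peak numbers the replicate 3 ratios of Klf2, Klf5 and Klf15 moved by more than that; these ratios were added after the data were seen. No paired analysis was possible because there is 1 group. Read depth is unknown, so an uncalled peak is not an absent site.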
